A study of Mus musculus with 2 samples.

Results

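Heat shock proteins and J-domain chaperones were followed in single mouse regulatory T (Treg) cells, the CD4 T cell lineage that holds other immune cells in check. Every feature whose symbol starts with Hspa, Hspb, Hspd, Hspe, Hsph, Hsp90 or Dnaj was taken, which gave 75 of the 32285 features of the deposited tables. The Treg cells had been stained with MitoTracker, a dye taken up by mitochondria, and FACS then split them into brightly stained (Mito-high) and weakly stained (Mito-low) cells. Each population gave 1 droplet library, so there is no replicate, no test and no p-value, and every difference is one between 2 libraries. Strain, tissue, age, sex and any treatment of the mice, and whether animals were pooled, are not stated in the labels used here.

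Heat shock proteins are chaperones, which bind unfolded chains and help them fold, assemble or be destroyed. HSP70 proteins (symbols Hspa) work in an ATP-driven cycle: J-domain proteins (Dnaj) bring the client and start ATP hydrolysis, and exchange factors such as HSP110 (Hsph1) reset the cycle. HSP90 proteins finish the folding of kinases and receptors, while HSP60 (Hspd1) and its lid HSP10 (Hspe1) form a closed folding chamber in the mitochondrial matrix, next to the matrix HSP70 (Hspa9). A few members, chiefly Hspa1a, Hspa1b and Dnajb1, are textbook targets of heat shock factor 1 and are made in quantity under protein stress, and the endoplasmic reticulum has its own set led by Hspa5 (BiP) and Hsp90b1 (GRP94).

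The kept cells, those with at least 500 detected genes and at most 20% of unique molecular identifiers (UMIs) from mitochondrially encoded genes, numbered 12217 in Mito-high, against 11679 in Mito-low, with 89896278 and 60526210 UMIs. The median was 6132 UMIs per cell in Mito-high, against 4668 in Mito-low, and 35 of the kept barcodes occur in both libraries. Cells with at least 2 of Ccl5, Il10 and Klrg1 detected were called effector, cells with an Igfbp4 UMI resting, and cells with neither other. Mito-high held 165 effector (1.35%), 9281 other and 2765 resting cells (22.6%), and Mito-low 1530 effector (13.1%), 9961 other and 185 resting cells (1.58%), while 6 and 3 cells met both rules and were set aside. All 5 independent effector markers were at least 1.5-fold higher and all 5 resting markers at least 1.5-fold lower in effector than in resting cells of either library. The Treg factor Foxp3 was at 25.8 counts per 1000000 UMIs (CPM) in the Mito-high library and 41.0 CPM in the Mito-low one. Of the other Treg markers listed, Il2ra was higher in Mito-high, at 209.6 against 156.8 CPM. Ikzf2, Ctla4 and Tnfrsf18 were lower there, at 1325 against 1899 CPM, 1043 against 1548 CPM and 221.5 against 357 CPM. Summed markers of NK and red blood cells stayed under 1 CPM in both libraries, with Ncr1 at 0, and those of CD8 T cells were at 9.03 and 5.47 CPM. The 5 B cell markers summed to 23.9 CPM in the Mito-high library and 17.96 CPM in the Mito-low one, a sum led by Cd79b, at 11.3 against 15.45 CPM. The other 4 were higher in Mito-high, with Cd79a at 3.15 against 0.744 CPM, Ebf1 at 3.63 against 0.529 CPM, H2-Aa at 5.07 against 0.925 CPM and Ms4a1 at 0.790 against 0.314 CPM. The 4 myeloid markers summed to 81.9 and 103.8 CPM, nearly all of it Cst3. Gm42418 and Malat1, transcripts that rise with poor RNA quality or nuclear RNA, were lower in Mito-high, at 1458 against 4016 CPM and 9590 against 18090 CPM. By class, Gm42418 was highest in resting cells of Mito-low, at 8762 CPM, against 2432 CPM in effector cells of Mito-low and 1373 CPM in resting cells of Mito-high. Malat1 was lower in resting than in effector cells of Mito-low, at 14210 against 17810 CPM.

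Between the libraries, most of the family differed little. Of the 75 members, 51 had 10 CPM or above in 1 or both libraries, 44 of them in both, and 24 stayed below it. Among the 51, 1 stood 1.5-fold or more higher in Mito-high, 8 stood 1.5-fold or more lower and 42 lay between, where 4.11% of all 7683 measured features were higher and 11.4% lower. The log2 ratio, Mito-high over Mito-low, had a median of −0.13 over the members and −0.15 over all measured features, of which 95% lay between −1.22 and 0.80. Scaling by the trimmed mean of M-values (TMM) instead of by all UMIs raises every log2 ratio by 0.19, which gives 4 higher and 6 lower members and a median of 0.06. All members together made up 7023 CPM in the Mito-high library and 7064 CPM in the Mito-low one, which is 0.702% and 0.706% of the UMIs. Hidden in that flat total, the mitochondrial HSP60 and HSP10 genes were higher in Mito-high, the inducible HSP70 pair was lower, and 10 of 11 measured endoplasmic reticulum members had a ratio below 0 (7 of 11 under TMM scaling), as did 5262 of all 7683 measured features before that scaling.

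**Figure D1:**
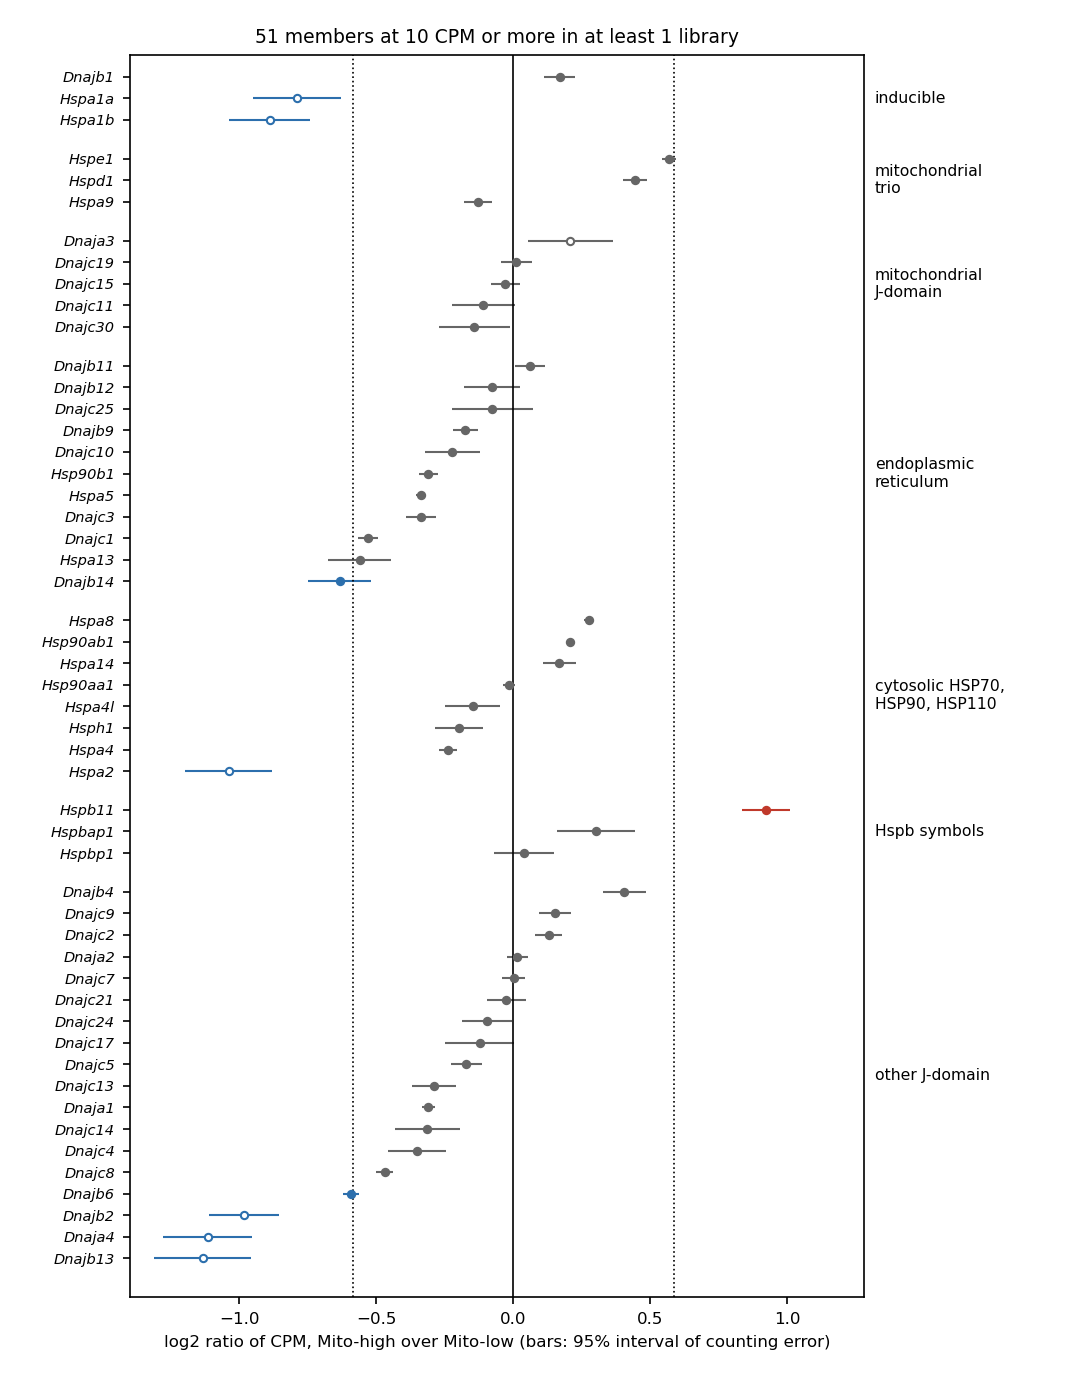
Log2 ratio of CPM, Mito-high over Mito-low (x axis), for the 51 measured members, grouped by role (right margin); bars are 95% intervals of counting error, dotted lines mark 1.5-fold, red and blue points lie beyond them, and open points are members under 10 CPM in 1 library. Hspb11 at 0.92 lies beyond the upper line, Hspe1 at 0.57 just inside it, and 8 members lie beyond the lower line.

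The mitochondrial trio was led by its folding chamber. Hspd1, HSP60, was at 134.5 CPM in the Mito-high library (95% Poisson interval 132.1 to 136.9) and 98.9 CPM in the Mito-low one (96.4 to 101.5), a log2 ratio of 0.44. Hspe1, HSP10, was at 464 CPM in the Mito-high library and 313 CPM in the Mito-low one, a log2 ratio of 0.57 (95% interval of counting error 0.54 to 0.59, as for the ratios that follow), which is 1.48-fold and just under 1.5-fold. Hspa9, the matrix HSP70 that also pulls imported proteins across the inner membrane, did not go with them: it was at 78.7 CPM in the Mito-high library and 86.0 CPM in the Mito-low one, a log2 ratio of −0.13 (−0.18 to −0.08) that turns to 0.06 under TMM scaling. Per cell this came to 3.41 Hspe1 UMIs in Mito-high, against 1.62 in Mito-low, and 0.990 and 0.513 Hspd1 UMIs. The summed trio had a log2 ratio of 0.44, against −0.05 for the other 69 members, whose sign turns to 0.14 under TMM scaling while the trio comes to 0.63.

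The HSP60 and HSP10 genes lie head to head on opposite strands. In the annotation Hspd1 lies on the minus strand of chromosome 1 at chr1:55077835-55088243 and Hspe1 on the plus strand at chr1:55088132-55091307 (GRCm38), so their 5′ ends overlap. RefSeq promoter windows, 250 bases before to 50 after a start site, were matched for 60 of the 75 members and searched on both strands for the heat shock element written as GAA, TTC and GAA or as TTC, GAA and TTC, with 2 bases of any kind between the triplets, each of which is the other's reverse complement. It occurred in 4 of the 60, Hspd1, Hspe1, Dnajb6 and Hsph1, and in 0.662% of all 27025 genes with a window. The match in the Hspd1 and Hspe1 windows is the same stretch of DNA. The 30 bases round the match nearest to the start site are shown on each gene's strand for 3 of the 4, to let the repeated units be seen, with the match in capitals (overlapping matches joined); they come from GRCm38.p6 windows at chr1:55088053-55088082 (plus), chr5:29735843-29735872 (plus) and chr5:149636280-149636309 (minus).
Hspe1: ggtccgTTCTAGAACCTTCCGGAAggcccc
Dnajb6: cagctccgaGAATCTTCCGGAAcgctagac
Hsph1: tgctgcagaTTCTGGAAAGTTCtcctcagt
The Hspe1 match begins 89 bases before its start site and the Dnajb6 match 46 bases before, while that of Hsph1 begins 16 bases after. The genes with a match did not share a direction between the libraries: Dnajb6 was lower in Mito-high, at a log2 ratio of −0.59, and Hsph1 was at −0.20. A match is only these letters in this window.

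HSP60 and HSP10 were higher in Mito-high in every cell class. In effector cells Hspd1 was at 176 CPM in the Mito-high library (156.5 to 196.7) and 112.8 CPM in the Mito-low one (106.1 to 119.8), in other cells at 139 and 96.98 CPM, and in resting cells at 117.4 CPM (112.8 to 122.1) and 73.1 CPM (58.1 to 90.7). In both libraries the order was thus effector, other, resting, and effector over resting came to a log2 ratio of 0.59 in Mito-high, against 0.61 in Mito-low. For the summed trio that ratio was 0.22 and 0.11, and −0.27 and −0.15 once every cell was thinned to 2000 UMIs. Classes were then assigned on the thinned counts, which left 38 effector cells in Mito-high and 100 resting cells in Mito-low. Hspe1 was nearly level over the classes, at 503, 466 and 454 CPM in effector, other and resting cells of Mito-high and at 328, 310 and 326 CPM in those of Mito-low. The 3 Mito-high values all lie above the 3 Mito-low values. Hspa9 ranged over 71.9 to 79.8 CPM in the Mito-high classes and 81.9 to 86.9 CPM in the Mito-low classes. Effector cells were the deeper ones in Mito-high, with a median of 8736 UMIs against 6402 in resting cells, and about equal in Mito-low, with 5288 against 5582. Cycling cells, defined below, made up 27.9% of effector and 4.30% of resting cells in Mito-high, and 1.18% and 0% in Mito-low.

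**Figure D2:**
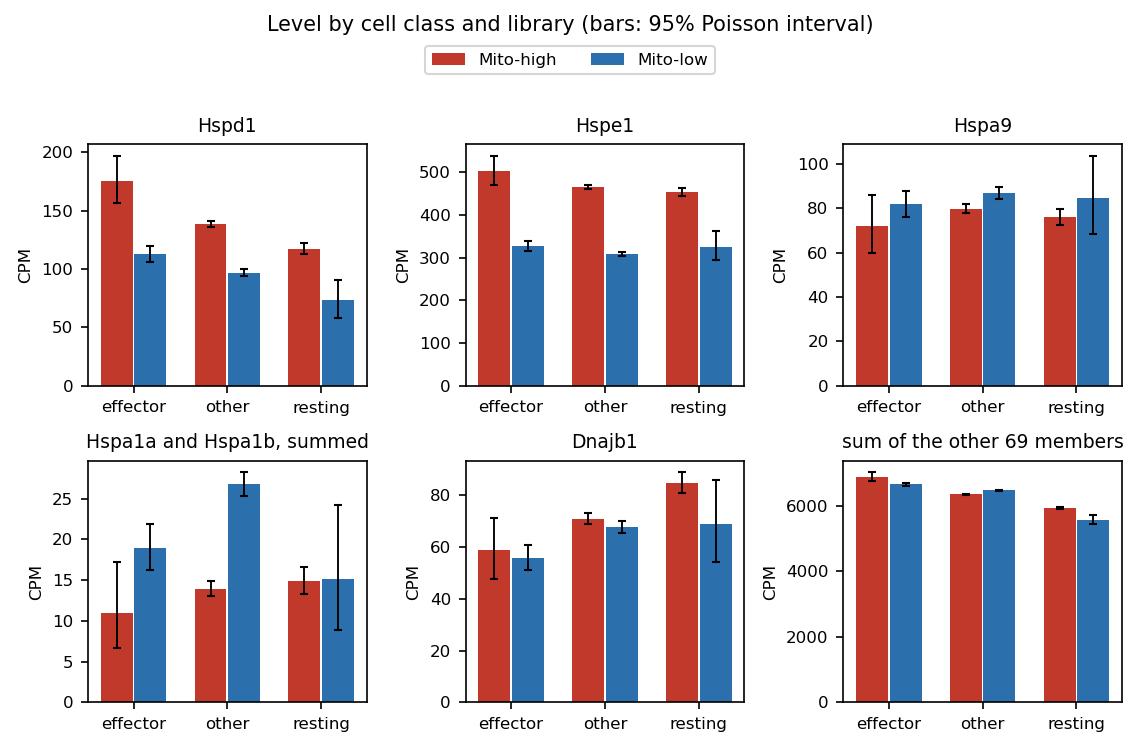
Level in CPM (y axes) of Hspd1, Hspe1, Hspa9, the Hspa1a and Hspa1b sum, Dnajb1 and the summed other 69 members in effector, other and resting cells of Mito-high (red) and Mito-low (blue); bars start at 0 and whiskers are 95% Poisson intervals. Hspd1 and Hspe1 stand higher in Mito-high in each class, at 176 against 112.8 CPM for Hspd1 in effector cells, while the Hspa1a and Hspa1b sum stands lower in effector and other cells.

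The difference in the trio went with cell depth. Among cells of 4000 to under 6000 UMIs the summed trio was at 461 CPM in the Mito-high library and 441 CPM in the Mito-low one, a log2 ratio of 0.07, and below 4000 UMIs the ratios were −0.01 and −0.09. At 6000 to under 8000 and at 8000 to under 12000 UMIs the log2 ratios were 0.11 and 0.10. At 12000 UMIs and more it was at 1038 CPM in 1383 Mito-high cells and 731 CPM in 302 Mito-low cells, a log2 ratio of 0.51. Within each library the trio was higher the deeper the cell, and the Mito-high library has more deep cells. With cells of 4000 to 6000 UMIs alone, Hspe1 kept a log2 ratio of 0.19 and Hspd1 turned to −0.08. Whether depth stands for cell size or for capture was not tested.

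**Figure D3:**
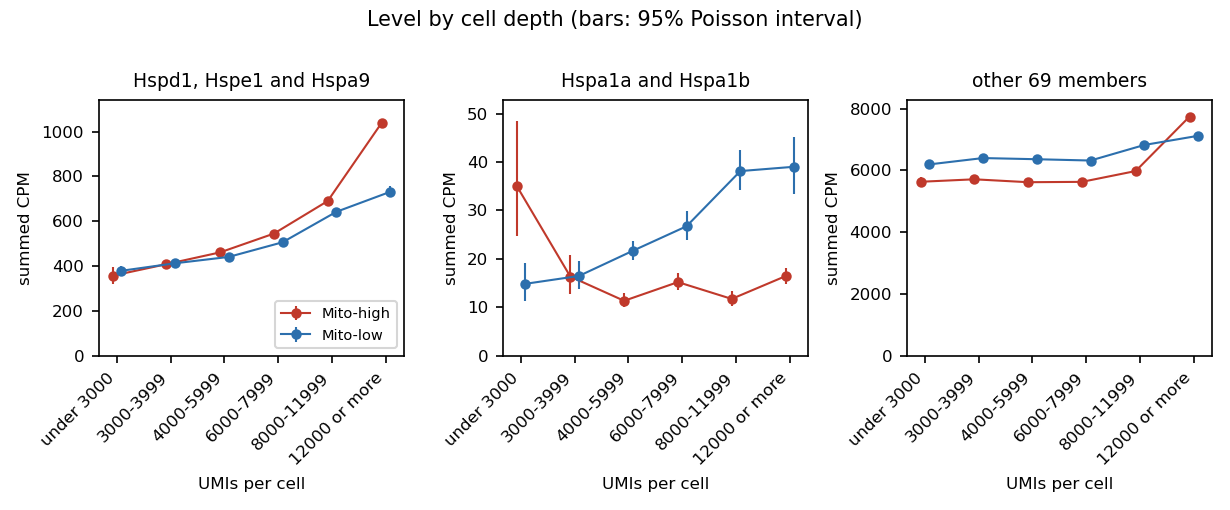
Summed CPM (y axes) of Hspd1, Hspe1 and Hspa9, of Hspa1a and Hspa1b, and of the other 69 members in cells binned by UMIs per cell (x axes), Mito-high red and Mito-low blue; whiskers are 95% Poisson intervals. The trio climbs with depth in both libraries and its intervals do not overlap from 4000 UMIs upward, with the widest gap at 12000 UMIs or more, 1038 against 731 CPM, while the pair is lower in Mito-high in each bin of 4000 UMIs or more.

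The trio was highest in a small set of cells in a growth state, marked here by at least 2 of Eno3, Lad1 and Mettl1, genes picked after values were seen. This state held 524 Mito-high cells (4.29%) and 57 Mito-low cells (0.488%). Hspd1 was at 421 CPM in growth-state cells and 111.2 CPM in the remaining cells of Mito-high, and at 497 and 95.8 CPM in those of Mito-low. Hspe1 was at 1075 against 414 CPM in Mito-high and 835 against 309 CPM in Mito-low. Hspa9, level between the libraries, was also higher in this state, at 148.8 against 73.0 CPM in Mito-high and 161.5 against 85.45 CPM in Mito-low. Growth-state cells were deep, with a median of 11482.5 UMIs against 6029 in the remaining cells of Mito-high, and 7806 against 4664 in Mito-low. Leaving them out lowered the log2 ratio of the trio between libraries to 0.29, against 0.44 with them. Without cycling cells it was 0.37.

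Over all cells the mitochondrial J-domain proteins stayed level between the libraries. Of 6, 5 were measured, and their log2 ratios ran from −0.14 to 0.21, with a median of −0.03 that turns to 0.16 under TMM scaling. Dnajc15, which sits in the inner membrane at the import motor, was at 76.8 CPM in the Mito-high library and 78.4 CPM in the Mito-low one. Dnajc19, another J-protein of the inner membrane, was at 73.9 and 73.3 CPM. In Mito-high, Dnajc15 was at 120.6 CPM in effector and 62.6 CPM in resting cells, a log2 ratio of 0.95 (0.73 to 1.16). In Mito-low it was at 76.4 CPM in effector and 83.8 CPM in resting cells, a log2 ratio of −0.15 (−0.45 to 0.19). By class the summed group was less level between the libraries. Its log2 ratio was 0.35 (0.20 to 0.50) in effector, 0.01 in other and −0.14 (−0.34 to 0.07) in resting cells. Single measured members ran from −0.45 to 0.66 in effector and from −0.59 to 0.60 in resting cells.

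The inducible HSP70 genes were the rare and uneven part of the family. Hspa1a was at 6.67 CPM in the Mito-high library (600 UMIs) and 11.5 CPM in the Mito-low one (698 UMIs), a log2 ratio of −0.79 (−0.95 to −0.63). Hspa1b was at 7.43 CPM in the Mito-high library (668 UMIs) and 13.8 CPM in the Mito-low one (833 UMIs), a log2 ratio of −0.89 (−1.04 to −0.74). Dnajb1, the J-domain partner of inducible HSP70, was not lower: it was at 73.9 CPM in the Mito-high library and 65.7 CPM in the Mito-low one, a log2 ratio of 0.17. Since Dnajb1 gives most of the UMIs of the 3 genes, their sum was level, at 88.0 CPM in the Mito-high library and 91.0 CPM in the Mito-low one, with a log2 ratio of −0.05 (−0.098 to 0.0016) that turns to 0.14 under TMM scaling.

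Hspa1a and Hspa1b are near copies that lie close together on the minus strand of chromosome 17, at chr17:34969190-34972156 and chr17:34956436-34959238, so how reads were split between them is uncertain and they are summed from here on. How alike they are shows in the 130 bases before their start sites, at chr17:34972157-34972286 and chr17:34959239-34959368 (RefSeq windows, GRCm38.p6, minus strand), which differ at 1 base. Capitals mark paired heat shock units, GAANNTTC or TTCNNGAA.
Hspa1a: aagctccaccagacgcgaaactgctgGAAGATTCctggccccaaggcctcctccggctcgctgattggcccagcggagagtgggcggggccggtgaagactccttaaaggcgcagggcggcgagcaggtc
Hspa1b: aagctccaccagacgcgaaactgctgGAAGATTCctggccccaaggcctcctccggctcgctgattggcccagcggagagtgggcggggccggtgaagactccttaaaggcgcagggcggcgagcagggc
The paired units are also contained in the longer element, and they are common: 16 of the 60 matched members and 17% of all genes have one in a window. The 13-letter element was not found in the windows of Hspa1a, Hspa1b or Dnajb1.

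Most cells held no UMI of the pair, and a few held many. At least 1 UMI of it was found in 3.24% of the 12217 Mito-high cells (interval 2.93 to 3.57) and in 2.82% of the 11679 Mito-low cells (interval 2.52 to 3.13), and, after each cell was thinned to 2000 UMIs, in 1.37% of 12078 and 1.78% of 11188 cells. No cell type here is known to lack these genes, so the share that free RNA gives was not measured. The 1% of cells with most pair UMIs held 76.7% of them in Mito-high, against 82.5% in Mito-low. Cells with 5 or more pair UMIs numbered 67 in Mito-high (0.548%), against 99 in Mito-low (0.848%), and the richest had 46 and 36. These cells carried 64.1% of the pair's UMIs in Mito-high, against 78.2% in Mito-low, and without them the pair was at 5.10 and 5.59 CPM, with a ratio on the log2 scale of −0.13. In cells below 3000 UMIs the pair was the higher in Mito-high, at 35.1 CPM (37 UMIs) against 14.8 CPM (57 UMIs), and from 4000 UMIs upward it was lower there, with log2 ratios between −0.81 and −1.70. As sums, the lower pair level in Mito-high over all cells thus lies mainly in these 67 and 99 cells. They were picked by the pair's own UMIs, so the ratio without them is no independent check.

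By class, the pair was at 11.02 CPM in effector (6.64 to 17.2), 13.95 CPM in other and 14.9 CPM in resting cells of Mito-high (13.3 to 16.6), and at 18.9, 26.7 and 15.15 CPM in those of Mito-low. The effector values rest on 19 UMIs in Mito-high, against 177 in Mito-low, and the Mito-low resting value on 17. In resting cells the 2 libraries were close, with a log2 ratio of −0.10 (−0.73 to 0.77), and in other cells Mito-high was lower, at −0.94 (−1.06 to −0.82). Dnajb1 ran from low to high over effector, other and resting cells in both libraries, at 58.6, 70.9 and 84.6 CPM in Mito-high and 55.7, 67.4 and 68.6 CPM in Mito-low, where the resting value has an interval of 54.15 to 85.8.

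Cells rich in the pair carried other heat shock transcripts as well. Set against cells with no pair UMI, Hsph1, the exchange factor, was at 114.3 against 26.4 CPM in Mito-high and 173 against 29.2 CPM in Mito-low. Hsp90aa1, the stress-responsive HSP90 of the cytosol, was at 1230 against 452 CPM in Mito-high and 1416 against 451 CPM in Mito-low. Dnajb1 was at 209 against 72.2 CPM in Mito-high and 222 against 62.8 CPM in Mito-low. For these 3 genes the Poisson intervals of the rich cells and the cells without the pair did not overlap in either library. Its relative Dnajb4 was at 92.9 against 42.5 CPM and 119.5 against 31.2 CPM. Hspd1 was at 309 against 130.4 CPM in Mito-high and 313 against 94.7 CPM in Mito-low, and Hspe1 at 804.5 against 456 CPM and 636 against 307 CPM. The pair itself was higher in growth-state cells, at 28.2 against 13.0 CPM in Mito-high and 65.9 (31 UMIs) against 25.0 CPM in Mito-low, and how far cells rich in the pair are growth-state cells was not tested.

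Several members did not follow, among them those of the reticulum. Hspa5 had log2 ratios of 0.06 in Mito-high and 0.03 in Mito-low between cells rich in the pair and cells without it, and Hsp90b1 of −0.13 and −0.28. Hspa9 was at −0.33 (−0.85 to 0.08) and −0.12 (−0.54 to 0.23), away from Hspd1 and Hspe1. Over the family, pair apart, 15 of 49 measured members stood 1.5-fold or more higher in Mito-high, and 17 of 50 did in Mito-low, where 15.7% and 13.1% of all measured features were. Members at least 1.5-fold lower numbered 2 in each library, against 4.90% and 7.29% of features. The median log2 ratio was 0.17 over members and 0.11 over all features in Mito-high, and 0.28 and 0.04 in Mito-low. Some members counted as higher rest on few UMIs in the rich Mito-high cells. Dnaja3 had 9 (interval −0.70 to 1.37) and Dnajb2 12 (−0.02 to 1.75). Dnajb2 and Hspb1 passed the 10 CPM filter there through the rich cells alone. Ahsa1, which stimulates HSP90, was at 109.7 against 50.5 CPM in Mito-high and 127.5 against 54.6 CPM in Mito-low. Bag3, an HSP70 co-chaperone, was at 36.6 against 10.1 CPM and 53.7 against 27.3 CPM. The small heat shock protein Hspb1 was seen in 12 UMIs in the rich Mito-high cells, at 18.3 against 0.985 CPM, and 1 such UMI was found in those of Mito-low. Cells rich in the pair had medians of 8016 UMIs in the Mito-high and 6262 UMIs in the Mito-low library, where cells without it had 6099 and 4644.

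**Figure D4:**
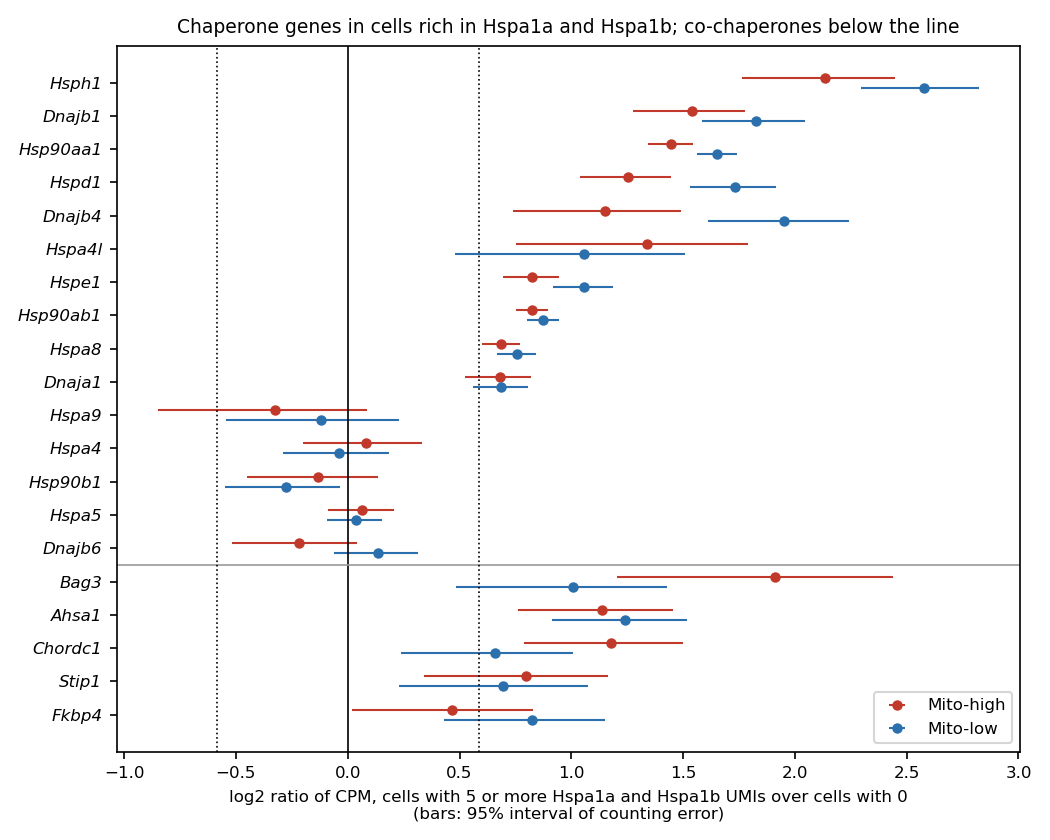
Log2 ratio of CPM (x axis) of cells with 5 or more Hspa1a and Hspa1b UMIs over cells with none, for 15 members and, under the line, 5 co-chaperones, in Mito-high (red) and Mito-low (blue); bars are 95% intervals of counting error and dotted lines mark 1.5-fold. Hsph1 stands highest, at 2.13 and 2.58, while Hspa9, Hspa4, Hsp90b1, Hspa5 and Dnajb6 lie inside the dotted lines in both libraries.

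Pair transcripts were also concentrated in cells with interferon-induced genes. Cells with at least 2 of Ifit1, Ifit3 and Isg15 detected, genes picked after values were seen, numbered 710 in Mito-high (5.81%), against 847 in Mito-low (7.25%). In these cells the pair was at 82.3 CPM, against 9.36 CPM in the remaining cells, in Mito-high, and at 160.7 against 11.8 CPM in Mito-low. They held 37.9% of the pair's UMIs in Mito-high, against 57.5% in Mito-low. Of the cells rich in the pair, 34 of 67 in Mito-high, against 68 of 99 in Mito-low, were in the interferon state, while 4.79% and 8.03% of interferon-state cells were rich in the pair. Without interferon-state cells the pair's log2 ratio between libraries was −0.34.

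Hsph1 and Dnajb1 stood high in pair-rich cells in and outside the interferon state. In Mito-high, Hsph1 was at 107.1 CPM (73.3 to 151.2) in pair-rich interferon-state cells and 120.0 CPM (86.8 to 161.6) in the other pair-rich cells, against 23.3 CPM in interferon-state cells without the pair and 26.6 CPM in cells with neither. In Mito-low these 4 values were 199, 119.6, 36.1 and 28.6 CPM. Dnajb1 gave 258, 167.4, 76.7 and 71.95 CPM in Mito-high and 232, 198, 62.2 and 62.9 CPM in Mito-low. For these 2 genes both pair-rich sets stood above interferon-state cells without the pair and cells with neither. Of the 12 Hspb1 UMIs in pair-rich Mito-high cells, 11 were in interferon-state cells (36.8 CPM) and 1 in the others (2.79 CPM). The HSP90 co-chaperone Chordc1 was at 91.3 CPM in pair-rich interferon-state cells of Mito-low and 53.6 CPM (28.5 to 91.6) in the other pair-rich cells, against 50.8 CPM in cells with neither.

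**Figure D5:**
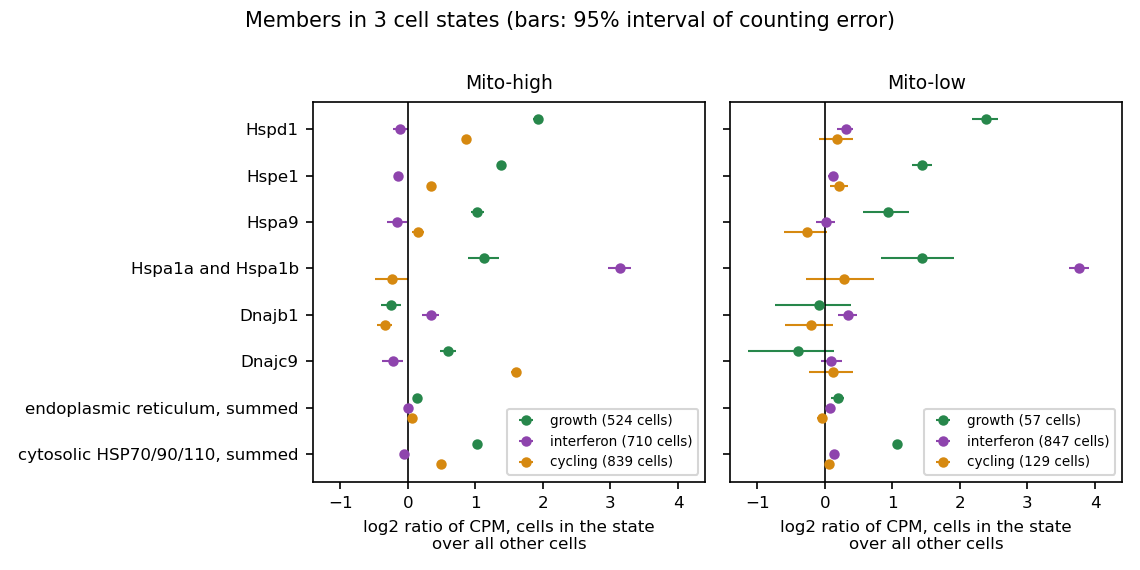
Log2 ratio of CPM (x axes) of cells in a growth, interferon or cycling state over all other cells of the same library, for 5 single members, the Hspa1a and Hspa1b sum and 2 summed role groups, in Mito-high (left) and Mito-low (right); bars are 95% intervals of counting error. The pair stands at 3.14 and 3.77 in interferon-state cells, and Hspd1 at 1.92 and 2.38 in growth-state cells.

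Dnajc9 and Hspd1 were among the members higher in cycling cells of Mito-high, taken as those with at least 2 of Pclaf, Birc5, Mki67, Top2a and Ube2c, of which Mito-high had 839 and Mito-low 129. Dnajc9, a histone chaperone that carries new histones, was at 167 CPM in cycling cells and 55.1 CPM in the remaining cells of Mito-high. In Mito-low it was at 68.9 CPM in cycling and 64.2 CPM in the remaining cells, a log2 ratio of 0.12 (−0.23 to 0.42). Hspd1 was at 218.2 CPM in cycling cells and 120.1 CPM in the remaining cells of Mito-high, and at 111.3 and 98.7 CPM in those of Mito-low. The mitochondrial J-domain members summed to 262.1 against 178.4 CPM in Mito-high and 244.1 against 192.0 CPM in Mito-low. Between the libraries Dnajc9 was nearly level, at 71.45 CPM in the Mito-high library and 64.3 CPM in the Mito-low one. The cytosolic HSP70, HSP90 and HSP110 members were at 4380 against 3104 CPM in and outside cycling cells of Mito-high, and at 3075 against 2949 CPM in Mito-low. Cycling cells had a median of 14563 UMIs in Mito-high, against 5921.5 in the remaining cells, and in Mito-low 7952 against 4648.5. Over the whole libraries Pclaf, Birc5 and Ube2c were at 69.9, 47.35 and 32.05 CPM in Mito-high, against 2.48, 3.07 and 3.54 CPM in Mito-low. Mki67 and Top2a were at 27.75 and 51.5 CPM in Mito-high, against 11.95 and 23.2 CPM in Mito-low. Whether the cells called cycling are in the same state in both libraries was not tested. In Mito-high they made up 27.9% of effector, 7.24% of other and 4.30% of resting cells. Their part in the effector over resting ratios of Hspd1 and Dnajc15 there was not tested.

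The endoplasmic reticulum members mostly lay on the other side of 0 from HSP60 and HSP10, as did most features. Of 13, 11 were measured, and 10 of these had a log2 ratio below 0 between the libraries, with a median of −0.31, or −0.12 under TMM scaling, beside 5262 of 7683 features below 0 and their median of −0.15. Hspa5, BiP, the reticulum's HSP70, was at 564 CPM in the Mito-high library and 711 CPM in the Mito-low one, a log2 ratio of −0.34 (−0.35 to −0.32). Hsp90b1, its HSP90, was at 167.5 and 208 CPM, with a ratio on the log2 scale of −0.31. Dnajc1, a membrane J-protein that recruits BiP, was at 142 and 205 CPM, at −0.53. Hspa13, an HSP70-like protein of microsomes, was at 13.6 and 20.1 CPM, at −0.56, and Dnajb14, a membrane J-protein, at 13.6 and 21.0 CPM, at −0.63, the 1 reticulum member at least 1.5-fold lower. Dnajb11, which serves BiP in the lumen, was the exception with a ratio of 0.06.

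Of these genes, 3 carry the element through which unfolded reticulum proteins are known to act, CCAAT and CCACG with 9 bases of any kind between them, on either strand, in their RefSeq windows: Hspa5, Hsp90b1 and Dnajc3, among the 60 matched members, against 0.137% of all genes. The match nearest the start site is shown on the gene's strand, in capitals, at chr2:34772019-34772048 (plus), chr10:86705528-86705557 (minus) and chr14:118937821-118937850 (plus) of GRCm38.p6, to show that the ends are shared while the middle is not; in Hsp90b1 it reads as the reverse complement.
Hspa5: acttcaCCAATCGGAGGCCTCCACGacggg
Hsp90b1: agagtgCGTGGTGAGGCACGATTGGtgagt
Dnajc3: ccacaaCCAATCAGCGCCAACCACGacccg
Dnajc3, which also holds back the kinase PERK, was at 68.6 CPM in the Mito-high library and 86.7 CPM in the Mito-low one. Its log2 ratio was −0.34, so the 3 genes had nearly 1 ratio, −0.31 to −0.34. Dnaja1, whose window lacks this element, was also at −0.31. The reticulum genes listed outside the family did not share this ratio, and which of them carry the element was not examined. Of 15 such genes, all measured, 1 was at least 1.5-fold higher, 0 lower and 14 between, with a median of 0.02. Of all measured features 4.11% were higher and 11.4% lower. Sdf2l1 was at 37.6 against 24.1 CPM, Manf at 148.2 against 118.0 CPM and Sec61b at 418 against 338 CPM. Calr, Canx, Hyou1, Creld2, Xbp1 and Atf4 had ratios below 0, the lowest −0.16 for Hyou1.

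The summed reticulum members, of which Hspa5 gives the most UMIs, were at 1300 CPM in Mito-high effector cells and 1537 CPM in Mito-low effector cells, a log2 ratio of −0.24 (−0.31 to −0.18), and at 1232 and 1516 CPM in other cells, −0.30. In resting cells they were at 1145 CPM in the Mito-high library and 1167 CPM in the Mito-low one, −0.03 (−0.11 to 0.05). Member by member, 8 of 11 measured ones were below 0 in resting cells, with a median of −0.22, and 8 of 12 in effector cells, with a median of −0.14, beside 4098 of 7364 and 4416 of 7884 features. Hspa5 in particular was at 560 CPM in Mito-high resting cells (549.5 to 569.7) and 530 CPM in Mito-low resting cells (488.5 to 574.6). Hspa5 and Hsp90b1 did not run alike over the classes: Hspa5 was at 505 CPM in effector and 560 CPM in resting cells of Mito-high, Hsp90b1 at 262 and 142 CPM. In Mito-low both were higher in effector cells, at 711 against 530 CPM and 228.5 against 165 CPM.

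The abundant cytosolic chaperones gave 46.9% of the family's UMIs in Mito-high, against 41.8% in Mito-low. Hspa8, the constitutive HSP70, was at 1090 CPM in the Mito-high library and 901 CPM in the Mito-low one, a log2 ratio of 0.28 (0.26 to 0.29). Hsp90ab1, the constitutive HSP90, was at 1441 and 1248 CPM, at 0.21. Its stress-responsive sister Hsp90aa1 was level, at 464 and 469 CPM, a log2 ratio of −0.01 that TMM scaling turns to 0.17, and Hsph1 was at 27.7 and 31.8 CPM, at −0.20. Hspa4, another HSP110-type exchange factor, was at 175.5 and 207 CPM, at −0.24. Of the 11 members of this group, 8 were measured. Among these, 0 stood 1.5-fold or more higher and 1 lower, beside 4.11% and 11.4% of all measured features. The 1 lower was the testis-rich Hspa2, named here for this count alone, at 6.33 CPM in the Mito-high library and 13.0 CPM in the Mito-low one. In growth-state cells the group was at 6208 against 3053 CPM in Mito-high and 6164 against 2927 CPM in Mito-low. Among cells of 4000 to 6000 UMIs the log2 ratio between libraries was 0.07 for Hspa8 and −0.09 for Hsp90ab1.

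Among symbols that start with Hspb, most were near 0. Hspb2, Hspb3 and Hspb8 had no UMI in either library, which allows up to 0.0334 CPM in the Mito-high library and 0.0496 CPM in the Mito-low one. Hspb1 was at 1.09 CPM in the Mito-high library and 3.07 CPM in the Mito-low one. The member with the highest ratio of all measured ones was Hspb11, at 44.5 CPM in the Mito-high library (4000 UMIs) and 23.5 CPM in the Mito-low one (1422 UMIs), a log2 ratio of 0.92 (0.83 to 1.01). Despite its symbol Hspb11 is known as IFT25, a subunit of the intraflagellar transport machinery of cilia. It was higher in Mito-high in each class, at 48.1 against 21.05 CPM in effector, 43.9 against 23.9 CPM in other and 46.2 against 25.8 CPM in resting cells. Hspbap1 and Hspbp1, proteins that bind heat shock proteins, were at 12.85 against 10.4 CPM and 19.3 against 18.8 CPM.

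The 28 remaining J-domain proteins, of the cytosol, nucleus and vesicles, had 18 measured members, with a median log2 ratio of −0.23, or −0.04 under TMM scaling. Of these, 0 were at least 1.5-fold higher, 4 at least 1.5-fold lower and 14 between. Of all measured features 4.11% were higher and 11.4% lower. Dnajb6, which keeps aggregation-prone proteins soluble, was at 193 CPM in the Mito-high library and 291 CPM in the Mito-low one, a log2 ratio of −0.59 (−0.62 to −0.56) that lies close to 1.5-fold. It was lower in Mito-high in each class, at 214 against 291 CPM in effector, 197 against 292 CPM in other and 178 against 210 CPM in resting cells. Dnajc8, a splicing factor, was at 181.5 and 251.2 CPM, at −0.47. Dnajb4 was at 43.4 and 32.7 CPM, at 0.41. The other 3 lower ones, named for this count, were Dnajb2, Dnaja4 and Dnajb13, at 9.63 against 19.0, 5.92 against 12.8 and 4.97 against 10.9 CPM. Dnajb13, known from sperm tails, overlaps Ucp2 on the other strand in the annotation, and whether its UMIs come from that gene was not tested. Each of these 3, and Hspa1a, Hspa1b and Hspa2, was under 10 CPM in Mito-high and passed the filter through Mito-low alone.

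Over cell classes the family as a whole was higher in effector cells, at 7703 CPM against 6678 CPM in resting cells of Mito-high and 7246 against 6128 CPM in Mito-low. In Mito-high 48 members were measured in this comparison, of which 11 were at least 1.5-fold higher in effector cells and 2 lower, where 25.7% and 9.08% of all measured features were. In Mito-low 11 of 51 were higher and 4 lower, where the shares over all features were 23.9% and 9.47%. These shares are close to or below the background. Members at 20 CPM or more in a library were ranked by the smaller of their ratios in the 2 libraries, and Hspa13, Dnajc1 and Hspd1 came highest. In a single library others had higher ratios than Dnajc1 and Hspd1. Dnajc15 was at 120.6 against 62.6 CPM in Mito-high, and Dnajb14 at 28.0 against 12.5 CPM (14 UMIs) in Mito-low. Hspa13 was at 19.1 against 8.055 CPM in Mito-high and 25.3 against 8.91 CPM (10 UMIs) in Mito-low. Dnajc1 was at 201 against 113.4 CPM and 219 against 112.3 CPM. Below 20 CPM, and named after their values were seen, Hspa2 had log2 ratios of 1.77 and 1.89 and Dnajb13 of 1.86 and 1.79. These rest on 5 UMIs each in resting cells of Mito-low. At the low end stood Dnajb4, at 20.9 against 51.6 CPM in Mito-high and 27.9 against 46.3 CPM in Mito-low. Dnajb1 followed, with log2 ratios of −0.52 and −0.32, and Dnajb9, a J-protein of the reticulum, with −0.95 and −0.24. In Mito-low the effector and resting intervals overlapped for Dnajb1, at 51.0 to 60.65 and 54.15 to 85.8 CPM. They also did for Dnajb9, at 89.7 to 102.3 and 93.5 to 133.7 CPM. So of the 2 genes that stood high in cells rich in the inducible pair, Dnajb4 was lower in effector than in resting cells of both libraries. Dnajb1 was lower beyond its intervals in Mito-high alone.

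Between the libraries within a class, 5 of 51 measured members were at least 1.5-fold higher and 7 lower in effector cells, where 10.8% and 13.3% of features were. In other cells 2 of 50 were higher and 5 lower, beside 3.90% and 9.77% of features. In resting cells 3 of 46 were higher and 4 lower, beside 5.15% and 9.13%. Of other over resting cells, 1 of 47 measured members was at least 1.5-fold higher in other cells and 0 lower in Mito-high, beside 4.52% and 0.563% of features, and 6 of 50 were higher and 2 lower in Mito-low, beside 17.1% and 5.52%.

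Outside the family, the cytosolic chaperonin TRiC is the ring that folds actin and tubulin and is HSP60's counterpart in the cytosol. Between the libraries 4.11% of all measured features were at least 1.5-fold higher and 11.4% lower. TRiC had 8 of 8 subunits measured, all between 1.5-fold lower and 1.5-fold higher. Its median log2 ratio between the libraries was 0.47, near that of Hspd1: Cct8 was at 194 CPM in the Mito-high library and 131.3 CPM in the Mito-low one, Cct4 at 199 and 138.7 CPM and Cct5 at 192 and 136.2 CPM. Of 12 genes of mitochondrial protein quality control, all measured, 0 were 1.5-fold apart, with a median of −0.04. Hscb, the J-domain protein of iron-sulfur cluster assembly whose symbol keeps it out of the family rule, was at 41.8 and 29.0 CPM, Pmpcb, a presequence protease subunit, at 31.4 and 24.25 CPM, and the protease Afg3l2 at 13.3 and 19.1 CPM. Of 22 heat shock factors and co-chaperones, 20 were measured, 0 were at least 1.5-fold higher and 2 lower, with a median of −0.21. Those 2 were Bag3, at 10.4 CPM in the Mito-high library and 27.9 CPM in the Mito-low one, and Fkbp5, a glucocorticoid-induced partner of HSP90, at 25.9 and 53.7 CPM, while the HSP90 co-chaperone Ptges3 was at 131.2 and 176.5 CPM.

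Early genes that tissue dissociation is known to switch on were in part lower in Mito-high, like the inducible pair. Of 12, 11 were measured, with a median log2 ratio of −0.45. Of these, 1 stood 1.5-fold or more higher in Mito-high and 4 lower, beside 4.11% and 11.4% of all measured features. Atf3 was at 33.25 CPM in the Mito-high library and 91.5 CPM in the Mito-low one, Fosb at 196 and 326 CPM and Dusp1 at 442.5 and 701 CPM. The 1 higher was Nr4a1, at 350 and 228 CPM, and Zfp36, Jun and Ier2 had ratios of 0.405, 0.25 and 0.16. The remaining measured genes had ratios below 0. The summed list was at 6240 and 8429 CPM over all cells, but at 6243 and 6149 CPM in resting cells. In cells rich in the pair Atf3 was at 82.3 against 32.6 CPM in Mito-high and 293 against 87.6 CPM in Mito-low, and Jun at 468 against 245 CPM and 581 against 202 CPM. Their part in the level of the pair was not tested. Without the cells above 1% Gm42418 UMIs the pair's log2 ratio was −0.79 and the trio's 0.43, close to the values over all cells.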

How the data were processed

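Gene expression of single Treg cells was measured by droplet sequencing in 1 library of MitoTracker-high and 1 of MitoTracker-low cells, made with a 5′ kit per the labels' protocols. The authors deposited raw UMI counts for each feature in each barcode. The submitters' processing notes name Cell Ranger 7.1.0, Seurat 4.3.0.1 and mm10, with no role or order. T cell receptor V segments held 7172 Mito-high and 7861 Mito-low UMIs, beside 290772 and 203992 of the constant regions, so which transcript end was read is not settled here.

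Barcodes with under 500 genes (120 in Mito-high, 209 in Mito-low) or over 20% mt- UMIs (15 and 13) were left out. No doublet caller was run and no barcode was removed as a doublet; whether doublets were removed before deposit is not given in the sources used here. UMIs were summed over kept cells of a library, class or state and divided by all UMIs of those cells (CPM). All intervals are at 95%: exact Poisson for a level, exact binomial given the summed count for a ratio, and Clopper-Pearson for a share. They cover counting error only, not differences between animals or libraries. Log2 ratios were taken with 1 added to each sum. A feature at 10 CPM or more in at least 1 of the groups compared counts as measured, and 1.5-fold is a size for description, not a test. For pair-rich cells, the pair was left out of the totals. The upper limit for a count of 0 is 3 counts.

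With 1 library per group no test was possible. Named members were a fixed core, those at 20 CPM or more that were 1.5-fold apart or ranked in the top 3 of their role or at either end of effector over resting, and up to 3 genes of each other list; all others named, the growth and interferon states and the 5-UMI level were chosen after values were seen. Members and lists were chosen with earlier results of these data known. The values of 1 member are not reported here. Gene positions are from GENCODE vM21 and promoter windows from RefSeq (GRCm38.p6). Python 3.11.15, numpy 2.4.6, scipy 1.17.1, pandas 2.3.3 and matplotlib 3.10.9 were used, with edgeR 4.0.16 in R 4.3.3 for TMM scaling alone; the ratio code was tested on simulated data.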

Additional observations from a re-analysis of the deposited data

How the results depend on the processing

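No paired analysis was possible because each group is 1 library and no result comes from a test. The values as reported were log2 ratios between libraries of −0.05 for the inducible trio, 0.44 for the mitochondrial trio, −0.05 for the other members and −0.84 for the Hspa1a and Hspa1b pair, 1 higher and 8 lower members, and effector over resting log2 ratios in Mito-high and Mito-low of −0.50 and −0.18 for the inducible and 0.22 and 0.11 for the mitochondrial trio. TMM scaling gave 0.14, 0.63, 0.14 and −0.65 for the 4 sums and 4 higher members. A total without mt-, ribosomal, receptor and immunoglobulin genes gave 0.086, 0.58, 0.085 and −0.71, 2 higher members, and 0.022 and −0.12 for the mitochondrial trio in effector over resting cells. Weighting every cell alike gave 0.074, 0.31, −0.11 and −0.59, and 0.076 for the mitochondrial trio in effector over resting cells of Mito-high. Thinning to 2000 UMIs gave 0.12, 0.30, −0.13 and −0.73, with effector over resting ratios of −1.48 and 0.23 for the inducible and −0.27 and −0.15 for the mitochondrial trio. In this setting the classes were assigned anew on the thinned counts. That left 38 effector cells of 2000 UMIs each in Mito-high and 100 resting cells in Mito-low, so these class ratios, above all the −1.48, rest on few UMIs. Cells of 4000 to 6000 UMIs gave 0.19, 0.065 and −0.18 for the first 3 sums, 2 higher members, and −0.24 and −0.36 for the inducible and the mitochondrial trio in effector over resting cells of Mito-high. Stricter class cuts gave −0.84 for the inducible trio in Mito-high and −0.29 and −0.039 for the mitochondrial trio. No level filter gave 2 higher and 14 lower members, and 20 CPM gave 2 lower. Without cycling cells the mitochondrial trio was at 0.37 and the other members at −0.10.

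Of the settings chosen after seeing the data, leaving out growth-state cells gave 0.29 for the mitochondrial trio, −0.11 for the other members and −0.0038 for the mitochondrial trio in effector over resting cells of Mito-high. Without interferon-state cells the 4 sums were 0.11, 0.465, −0.0375 and −0.34, with 2 higher and 5 lower members. Without cells rich in the pair the inducible trio was at 0.17 and the pair at −0.13, and without cells above 1% Gm42418 UMIs the other members were at −0.059. The cause of these shifts was not tested. Of 23 named members, 16 kept the sign of their ratio between libraries in all 13 settings run for them. As reported, the effector values of Mito-high rest on 165 cells and the resting values of Mito-low on 185, and these numbers change with thinning, stricter class cuts and the cell filters.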
